A study of Mus musculus with 12 samples.

Results

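The genes described here encode receptors through which eosinophils sense alarmins and other tissue cytokines. The set holds 10 genes, chosen by symbol from the Ensembl identifiers of the count table: Il1rl1, Il1rap, Il17rb, Crlf2, Il7r, Il18r1, Il18rap, Ifngr1, Ifngr2 and Il10ra. All 10 were found among the 53801 genes of the table, of which 26487 had at least 1 count. RNA-seq was performed on eosinophils of Atg5 flox/flox eoCre Il5tg mice, called Atg5-knockout, and of eoCre Il5tg mice, called control, with 3 libraries for each genotype from bone marrow and 3 from blood. Both genotypes carried the Cre recombinase, knocked into the eosinophil peroxidase locus Epx, and an Il5 transgene driven by the Cd3d promoter of T cells, so that no library came from eosinophils at ordinary IL-5 levels, and the age of these mice is not given in the sources used here. Bone marrow eosinophils were purified by depleting other cells with antibodies, whereas blood eosinophils were purified by another procedure that starts with density layering, so that tissue and isolation procedure cannot be told apart. The study used 3 mice of each genotype, and the labels do not tie a library to a mouse, so that p-values measure the spread between libraries.

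Alarmins are cytokines that epithelial and stromal cells release when a tissue is stressed or injured. IL-33 binds ST2, the product of Il1rl1, which signals together with the accessory protein IL1RAP. IL-25 binds IL-17RB, which pairs with IL-17RA, and TSLP binds CRLF2, which pairs with the IL-7 receptor alpha chain. IL-18 uses a binding chain (Il18r1) and an accessory chain (Il18rap) of the same receptor family as ST2. Interferon-γ uses IFNGR1 and IFNGR2, and the suppressive cytokine IL-10 binds IL10RA, which pairs with IL10RB. ST2 is well known on eosinophils, where IL-33 activates the cell and prolongs its survival.

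Total counts ranged from 18885052 to 30270166 per library. The summed share of 10 eosinophil genes, among them Epx and Prg2, was 8.04% to 10.2% of counts in bone marrow and 1.80% to 4.05% in blood, and none of the 10 was at 0 in any library. Prg2 gave the most of these counts. Of the 10 genes, 5 were lower in each blood library than in any bone marrow library, 4 overlapped and 1 was higher. The higher one was Siglecf, at 345 to 464 CPM in bone marrow and 592 to 931 CPM in blood. The 10 genes of T and NK cells took 0.00916% to 0.0129% in bone marrow, where Cd3e was at 0 in each of the 6 libraries, and 0.0273% to 0.0646% in blood, where none was at 0. The 6 B cell genes took 0.0370% to 0.0401% in bone marrow and 0.0149% to 0.215% in blood, with the highest values in blood replicate 1 of both genotypes. The 7 neutrophil genes took 0.948% to 1.22% in bone marrow and 0.322% to 0.573% in blood. Of these, 4 were lower in each blood library than in any bone marrow library, among them Elane, a granule protease made by neutrophil precursors, at 484 to 791 CPM in bone marrow and 0.511 to 1.36 CPM in blood. The share of all genes whose blood libraries lie apart from the bone marrow libraries was not computed. Such counts of marker genes, here and below, are therefore a description only. The 7 monocyte and macrophage genes took 0.131% to 0.184% over both tissues and the 6 platelet genes 0.00651% to 0.0314%. The 7 red cell genes reached 14.6% in blood control replicate 1, against at most 0.722% in bone marrow. In such bulk libraries, fewer cells of a type and less RNA per cell cannot be told apart. The whole-gene level of Atg5, which also counts exons outside a deleted stretch, was 42.5 ± 2.62 CPM in control and 32.0 ± 1.74 CPM in Atg5-knockout bone marrow (SD, n = 3), with no overlap between the libraries but an adjusted p of 0.157 in edgeR. In blood it was 48.1 ± 9.62 CPM in control and 47.2 ± 9.12 CPM in Atg5-knockout libraries (edgeR adjusted p = 1), so that the whole-gene count did not separate the genotypes there.

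Il1rl1, Il18r1 and Il18rap lie side by side on the plus strand of chromosome 1 (GRCm38), Il1rl1 at 40429570 to 40465415, Il18r1 at 40465552 to 40500854 and Il18rap at 40515362 to 40551705. Only 136 bases separate the annotated end of Il1rl1 from the first start of Il18r1 and the levels of these neighbours are given below. The bases before their starts are therefore shown, together with those before Crlf2 and Ifngr1, which were higher in blood in both genotypes. All are RefSeq sequences of GRCm38.p6, written 5′ to 3′ on the strand of the gene, and end at the base before the start. Capitals mark matches to the GATA motif, searched on both strands as AGATAA or AGATAG and as TGATAA or TGATAG.
Il1rl1, chr1:40429320-40429569, plus strand: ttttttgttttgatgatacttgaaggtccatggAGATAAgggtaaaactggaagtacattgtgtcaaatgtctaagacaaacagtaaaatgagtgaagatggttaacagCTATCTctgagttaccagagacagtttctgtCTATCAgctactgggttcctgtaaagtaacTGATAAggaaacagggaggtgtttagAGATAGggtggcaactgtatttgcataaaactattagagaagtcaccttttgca
Il18r1, chr1:40465416-40465551, plus strand: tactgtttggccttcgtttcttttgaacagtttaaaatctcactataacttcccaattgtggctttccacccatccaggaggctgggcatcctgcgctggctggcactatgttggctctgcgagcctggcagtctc
Il18rap, chr1:40515112-40515361, plus strand: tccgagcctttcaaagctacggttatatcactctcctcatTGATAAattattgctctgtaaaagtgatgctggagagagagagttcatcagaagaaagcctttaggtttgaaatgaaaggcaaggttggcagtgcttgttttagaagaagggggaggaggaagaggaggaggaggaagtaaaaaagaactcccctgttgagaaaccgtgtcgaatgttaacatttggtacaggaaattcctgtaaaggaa
Crlf2, chr5:109558994-109559243, minus strand: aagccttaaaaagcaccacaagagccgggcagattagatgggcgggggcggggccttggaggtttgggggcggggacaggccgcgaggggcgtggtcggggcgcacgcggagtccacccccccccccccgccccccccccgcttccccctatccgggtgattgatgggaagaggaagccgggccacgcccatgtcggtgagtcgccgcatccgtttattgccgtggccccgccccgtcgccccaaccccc
Ifngr1, chr10:19591699-19591948, plus strand: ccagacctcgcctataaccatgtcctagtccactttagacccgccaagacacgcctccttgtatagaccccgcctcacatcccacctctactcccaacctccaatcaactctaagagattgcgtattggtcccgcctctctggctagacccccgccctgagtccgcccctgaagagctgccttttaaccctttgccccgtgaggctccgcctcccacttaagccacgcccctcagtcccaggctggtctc
The upstream window of Il1rl1 held 5 GATA matches, the nearest with 48 and the farthest with 211 bases between it and the start. Windows of this length held at least 1 such match in 26.5% of 32851 RefSeq starts, and at least 5 matches in 0.0426% of them. A second start of Il1rl1, further inside the gene, had 1 match before it, and Il18rap had 1. RefSeq windows were given for 9 of the 10 genes, and those of the other 7 had none, which says only that these letters are absent from the 250 bases searched. The motif TTCNNNGAA, read by STAT factors and searched on both strands, was found 2 times before the third start of Il18r1 and 1 time before Il7r, against at least 1 match in 7.02% of all windows. The windows also differed in composition. Those of Il1rap, Il17rb, Crlf2 and Ifngr2 held 24 to 30 CpG dinucleotides, that of Ifngr1 held 11, and those of Il1rl1, Il18r1, Il18rap and Il7r held 0 to 7, beside a median of 6 over all windows.

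Levels were compared between genes as RPKM, which is CPM (counts per 1e6 counts of the library, after TMM scaling) divided by exon length in kilobases. In control bone marrow Ifngr1, the ligand-binding chain of the interferon-γ receptor, was highest at 66.6 ± 2.10 RPKM (SD, n = 3), above 96.4% of the genes with a count. It was followed by Il1rl1 (41.4 ± 5.17 RPKM), Crlf2 (38.5 ± 2.47) and Ifngr2 (32.6 ± 2.94), and then by Il10ra (17.6 ± 0.933) and Il18rap (16.4 ± 1.49). The other 4 lay far lower, Il1rap at 1.22 ± 0.0849 RPKM, Il18r1 at 0.91 ± 0.0584, Il7r at 0.49 ± 0.108 and Il17rb at 0.448 ± 0.0639. Within this order the libraries of Il1rl1 and Crlf2 overlapped, as did those of Il10ra and Il18rap and those of Il7r and Il17rb, so that the order within each of these pairs lay inside the spread. Atg5-knockout bone marrow had the same groups of high and low genes, with Crlf2 (41.6 ± 1.38 RPKM) above Il1rl1 (33.5 ± 7.62), Il18rap (18.8 ± 2.60) above Il10ra (17.6 ± 1.7) and Il18r1 (1.27 ± 0.489) above Il1rap (1.22 ± 0.172). The libraries of the last 2 pairs overlapped.

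The order was different in blood. Ifngr1 stayed first at 111 ± 22.0 RPKM in control libraries, Crlf2 came next at 69.5 ± 12.7, and Il10ra followed at 60.5 ± 18.7, overlapping Crlf2. Il1rl1 was next at 27.0 ± 5.22 RPKM, overlapping Ifngr2 at 21.4 ± 6.34, and Il18rap was at 9.77 ± 1.80. The lowest 4 were Il18r1 (2.17 ± 1.24 RPKM), Il1rap (1.65 ± 0.374), Il7r (1.03 ± 1.48) and Il17rb (0.103 ± 0.0697), each overlapping its neighbour in the order. Atg5-knockout blood had the same order, from Ifngr1 at 96.3 ± 14.6 to Il17rb at 0.0559 ± 0.0367 RPKM. The plot of levels per exon length shows the 6 abundant genes separated from the 4 scarce ones in both tissues.

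**Figure D1:**
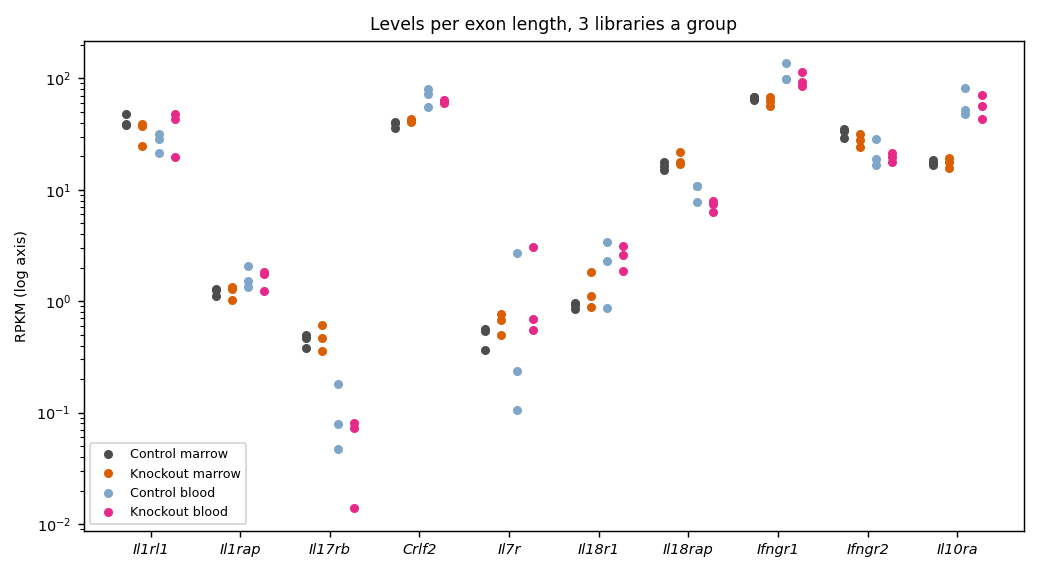
Level per exon length (RPKM, log axis) of the 10 receptor genes, with 1 point per library and the 4 groups in different colours. Ifngr1 is highest in each group, and Il17rb, Il7r, Il1rap and Il18r1 reach at most 3.36 RPKM in the 12 libraries.

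Blood was compared with bone marrow within each genotype, by edgeR's quasi-likelihood test over all genes that passed the filter on low counts, with a gene called at a Benjamini-Hochberg adjusted p under 0.05. All 10 genes passed that filter in both genotypes. In control eosinophils 3 of the 10 were called higher in blood (Il10ra, Crlf2 and Ifngr1), beside 16.2% of all 13669 genes tested, and 3 were called lower (Il17rb, Il18rap and Il1rl1), beside 18%. In Atg5-knockout eosinophils 4 were called higher (Il10ra, Crlf2, Ifngr1 and Il18r1), beside 23.5% of 13853 genes, and 3 were called lower (Il17rb, Il18rap and Ifngr2), beside 24.1%. The median log2 fold change of the 10 was 0.58 in control and 0.50 in Atg5-knockout eosinophils, beside -0.003 and -0.01 over all genes tested. Leaving out control bone marrow replicate 1, 2 or 3 lowered the counts in control eosinophils to 2, 2 and 1 higher and to 0, 1 and 0 lower, and Il10ra was called each time. Without blood replicate 1 of each genotype, the libraries richest in lymphocyte genes, 3 genes were called higher and 4 lower in control eosinophils, and 4 higher and 3 lower in Atg5-knockout eosinophils. With library size alone in place of TMM scaling, the median of all genes moved to -0.31 in control and -0.24 in Atg5-knockout eosinophils, and the share of higher genes among all calls fell from 47.3% to 25.1% and from 49.4% to 34.3%. Changes between the tissues are therefore relative to the bulk of the genes. The shares of neutrophil, basophil and mast cell, and T and NK cell genes also moved between the tissues, as did the share of eosinophil genes, and their part in these calls was not tested.

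**Figure D2:**
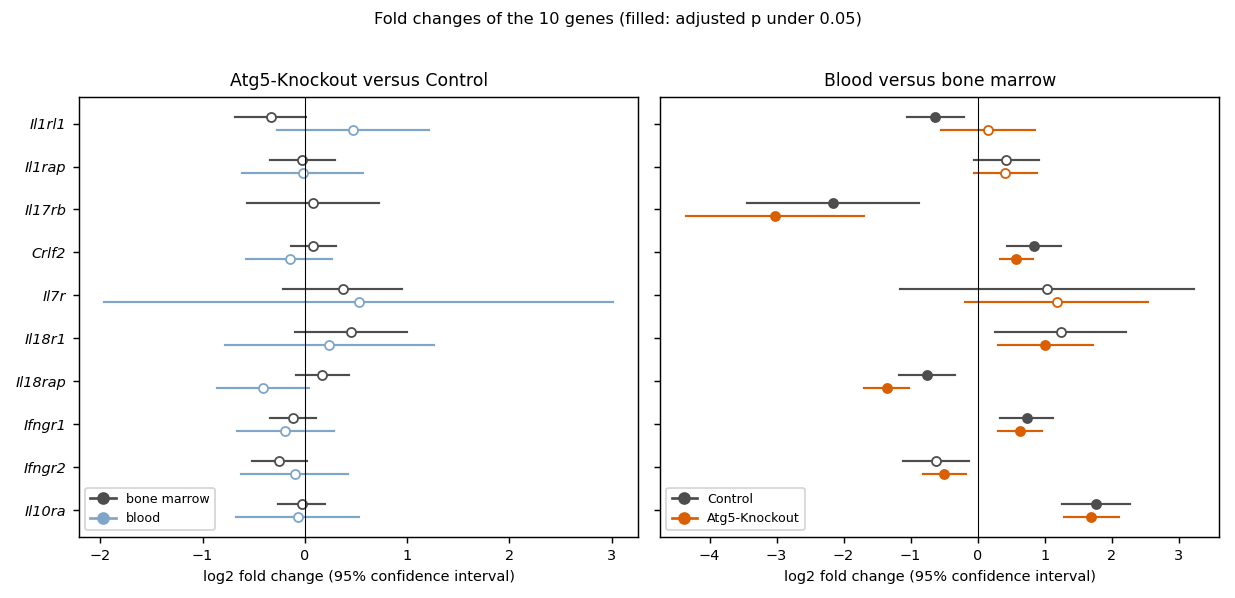
Log2 fold change of each gene with its 95% confidence interval, for Atg5-knockout against control (left) and for blood against bone marrow (right), where filled points have an adjusted p under 0.05. The left panel has no filled point, and Il17rb is missing from its blood series because it did not pass the filter there; in the right panel both genotypes show Il10ra, Crlf2 and Ifngr1 filled above 0, and Il17rb and Il18rap filled below 0.

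Il10ra, the ligand-binding chain of the IL-10 receptor, showed the largest rise of the 10 genes. Its CPM was 65.2, 58.8 and 61.0 in control bone marrow, and 181, 168 and 287 in control blood (replicates 1 to 3). Each blood library was above each bone marrow library, a 3.40-fold difference (log2 fold change 1.77, SE 0.22, edgeR adjusted p = 0.00057). The Atg5-knockout libraries had 55.4, 67.2 and 62.6 CPM in bone marrow and 196, 152 and 246 CPM in blood, which was a 3.25-fold difference with no overlap (log2 fold change 1.7, SE 0.18, adjusted p = 0.000122, edgeR). Its partner chain Il10rb is shared with other cytokine receptors, and the ratio of Il10ra to Il10rb per exon length was 1.21 to 1.79 in the 6 bone marrow libraries and 3.25 to 6.95 in the 6 blood libraries.

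Of the interferon-γ receptor chains, Ifngr1 was called higher in blood in both genotypes and Ifngr2 lower in Atg5-knockout eosinophils. Ifngr1 was at 183, 192 and 193 CPM in control bone marrow and at 282, 280 and 390 CPM in control blood, all blood libraries being higher (1.66-fold, log2 fold change 0.73, SE 0.18, edgeR adjusted p = 0.0126). This call was lost with library size alone (log2 fold change 0.42, adjusted p = 0.0848, edgeR) and without bone marrow replicate 1, 2 or 3 (adjusted p = 0.0601, 0.0563 and 0.0657). Atg5-knockout eosinophils had Ifngr1 at 179, 195 and 162 CPM in bone marrow and at 241, 261 and 321 CPM in blood, again without overlap (1.55-fold, log2 fold change 0.63, SE 0.14, edgeR adjusted p = 0.00618). Ifngr2, the signalling chain that recruits JAK2, was at 111, 116 and 97.2 CPM in control bone marrow and 55.1, 63.0 and 94.8 CPM in control blood. Here replicate 3 of blood lay just under the lowest bone marrow library, and the difference did not pass the threshold (log2 fold change -0.62, SE 0.22, edgeR adjusted p = 0.0543), although DESeq2 gave 0.0473, and edgeR without blood replicate 3 gave 0.00844. It was lower in Atg5-knockout blood, at 65.4, 58.7 and 71.3 CPM against 93.5, 80.0 and 105 CPM in bone marrow (log2 fold change -0.50, SE 0.14, edgeR adjusted p = 0.0175). Without bone marrow replicate 1, bone marrow replicate 3 or blood replicate 2 its adjusted p was 0.0555, 0.0744 and 0.0628. Within a library, which needs no scaling between libraries, the ratio of Ifngr1 to Ifngr2 per exon length was 1.79 to 2.83 in bone marrow and 4.29 to 5.95 in blood, with no overlap between the tissues in either genotype.

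Crlf2, the TSLP-binding chain, was at 60.4, 59.0 and 53.4 CPM in control bone marrow and at 83.1, 109 and 120 CPM in control blood. The rise was 1.79-fold without overlap (log2 fold change 0.84, SE 0.18, edgeR adjusted p = 0.00705), and the adjusted p was 0.0522 without bone marrow replicate 3. In Atg5-knockout eosinophils it rose 1.5-fold, from 60.0, 62.3 and 64.1 CPM to 89.3, 91.3 and 96 CPM (log2 fold change 0.58, SE 0.11, edgeR adjusted p = 0.00233). Its partner Il7r, the IL-7 receptor alpha chain, was scarce and did not pass the test in either genotype. Il7r was at 2.50, 1.71 and 2.65 CPM in control bone marrow and at 12.8, 1.10 and 0.491 CPM in control blood. In Atg5-knockout libraries it was at 2.32, 3.19 and 3.57 CPM in bone marrow and at 14.4, 3.25 and 2.56 CPM in blood. Replicate 1 of blood was thus the high library in both genotypes, and these were also the libraries with the most counts of T and NK cell genes (0.0646% and 0.0608%) and of B cell genes (0.107% and 0.215%). Cd3e, a CD3 chain of the T cell receptor complex, was at 12.2 and 20 CPM in these 2 libraries and at 0.176 to 1.54 CPM in the other 4 blood libraries. Gzma, of the same list, was at 419 CPM in control replicate 1, against 247 and 208 CPM in replicates 2 and 3. In Atg5-knockout blood it was at 253 CPM in replicate 1, against 338 and 312 CPM. Ncr1, Klrb1c and Nkg7 were likewise not highest in replicate 1 of Atg5-knockout blood. Without replicate 1 of blood, a setting added after the values were seen, the log2 fold change of Il7r went from 1.04 to -1.51 in control (edgeR adjusted p = 0.441 and 0.0263) and from 1.18 to -0.04 in Atg5-knockout eosinophils (adjusted p = 0.138 and 0.917, edgeR). In Atg5-knockout eosinophils it was called higher without blood replicate 3 (log2 fold change 1.56, edgeR adjusted p = 0.0405). The part of lymphocytes in the Il7r level was not tested.

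**Figure D3:**
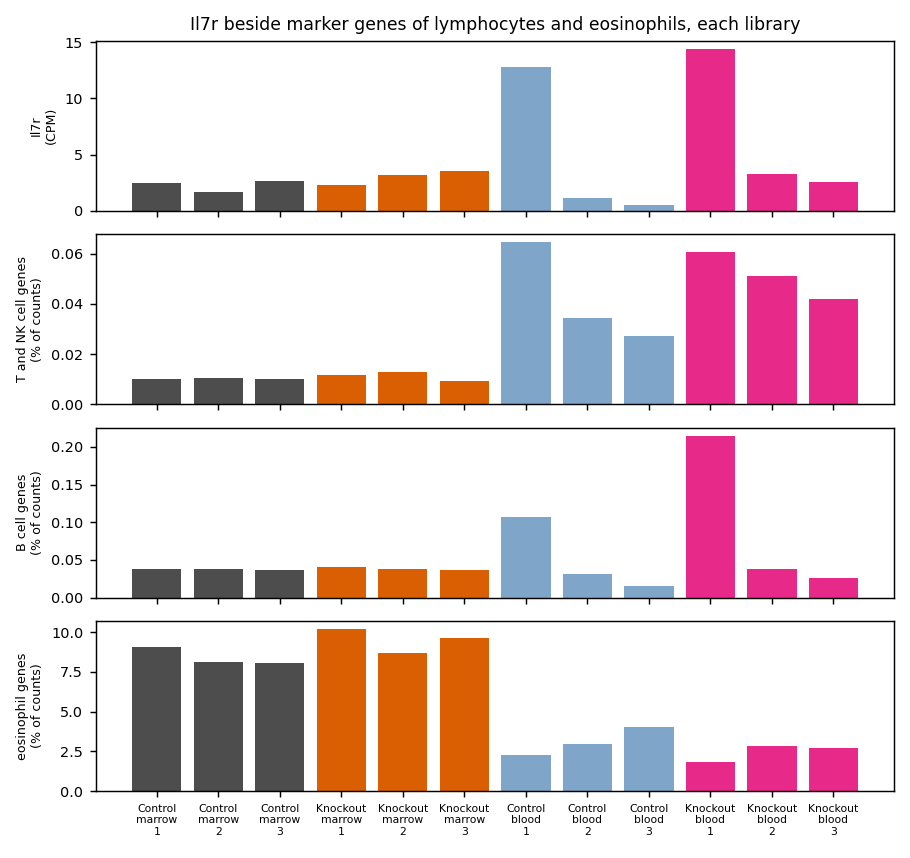
Il7r level (CPM) and the summed share of counts (%) of 10 T and NK cell genes, 6 B cell genes and 10 eosinophil genes in each of the 12 libraries. Blood replicate 1 of each genotype has the tallest bar for Il7r, for T and NK cell genes and for B cell genes, and the shortest blood bar of its genotype for eosinophil genes.

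Il1rl1 and Il1rap form the IL-33 receptor. Il1rl1 was at 326, 270 and 260 CPM in control bone marrow and at 146, 215 and 197 CPM in control blood. The 3 blood libraries lay below the 3 bone marrow libraries (1.55-fold lower, log2 fold change -0.63, SE 0.19, edgeR adjusted p = 0.0322). The call was lost when all 12 libraries shared the fit (adjusted p = 0.1, edgeR) and without bone marrow replicate 1, 2 or 3 (0.121, 0.0795 and 0.0786) or blood replicate 3 (0.0542). In Atg5-knockout eosinophils it was at 171, 266 and 257 CPM in bone marrow and at 135, 296 and 332 CPM in blood, which overlapped (log2 fold change 0.15, SE 0.31, 95% confidence interval -0.54 to 0.85, edgeR adjusted p = 0.709). Replicate 1 was the lowest blood library of both genotypes. Basophils and mast cells also carry ST2, and 7 of their genes took 0.0219% to 0.028% of counts in bone marrow and 0.00618% to 0.0108% in blood, with 4 of the 7 lower in each blood library than in any bone marrow library. Cpa3 went from 30.8 to 45.0 CPM in bone marrow to 4.75 to 11.5 CPM in blood, and Mcpt8 from 31.4 to 47.8 CPM to 12.7 to 23.8 CPM. Gata2, which gave the most counts of this list, went from 110 to 150 CPM to 41.1 to 83.0 CPM, whereas Tpsb2 was at 0 in the 12 libraries. The summed share thus rests more on Gata2 than on any other gene of the list. Whether the Gata2 counts came from basophils and mast cells was not tested. Fcer1a, of the same list, overlapped between the tissues, at 2.69 to 4.29 CPM in bone marrow and 2.38 to 4.49 CPM in blood. The part of basophils and mast cells in the Il1rl1 level was not tested. Il1rap, the accessory chain shared with the IL-1 receptor, did not pass the test in either genotype. It was at 12.7, 14.2 and 14.5 CPM in control bone marrow and 23.5, 15.3 and 17.4 CPM in control blood (log2 fold change 0.43, SE 0.22, edgeR adjusted p = 0.158). The Atg5-knockout values were 11.6, 15.2 and 14.7 CPM in bone marrow and 20.7, 14 and 19.9 CPM in blood (log2 fold change 0.41, SE 0.21, edgeR adjusted p = 0.129, and 0.0452 without blood replicate 2). Per exon length, Il1rl1 exceeded Il1rap 24.2- to 42.3-fold in bone marrow and 10.2- to 34.9-fold in blood, with the lowest ratios, 10.2 and 10.7, in replicate 1 of each blood group. The size of this excess depends on the annotated exon length of Il1rap, 11360 bases, which may include exons not used in these cells. Of these bases 552 are shared with a gene on the other strand, and reads over them may be missing from its counts. Counts per gene do not separate the membrane forms of both proteins from their soluble forms.

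Of the IL-18 receptor chains, encoded next to Il1rl1, Il18rap was called lower in blood in both genotypes and Il18r1 higher in Atg5-knockout eosinophils. Il18rap, the accessory chain, was at 121, 101 and 110 CPM in control bone marrow and at 72.3, 73.7 and 52.0 CPM in control blood. All blood libraries were lower (1.69-fold, log2 fold change -0.75, SE 0.18, edgeR adjusted p = 0.0127), although the adjusted p was 0.0542 and 0.0537 without bone marrow replicate 1 or 3. In Atg5-knockout eosinophils it fell from 120, 114 and 147 CPM to 50.2, 53.8 and 43.0 CPM, a 2.56-fold difference without overlap (log2 fold change -1.36, SE 0.15, edgeR adjusted p = 0.000123). Il18r1, the IL-18-binding chain, was at 4.47, 4.07 and 4.61 CPM in control bone marrow and at 16.2, 11 and 4.22 CPM in control blood. Replicate 3 of blood fell within the bone marrow range, and the difference missed the threshold (log2 fold change 1.24, SE 0.43, edgeR adjusted p = 0.0543), although DESeq2 gave 0.0143, and edgeR without blood replicate 3 gave 0.00372. From Atg5-knockout bone marrow to blood it rose from 4.26, 5.33 and 8.77 CPM to 12.6, 15 and 8.94 CPM (log2 fold change 1.01, SE 0.31, edgeR adjusted p = 0.0256). That call was lost with library size alone (0.0755) and with all 12 libraries in the fit (0.0628, both edgeR adjusted p), and without bone marrow replicate 1 (0.103), bone marrow replicate 2 (0.103) or blood replicate 2 (0.0921). The ratio of Il18rap to Il18r1 per exon length was 12 to 20.1 in bone marrow and 2.56 to 8.78 in blood, with no overlap. NK cells express both chains, and the NK cell gene Gzma was at 208 to 419 CPM in blood against 1.25 to 2.74 CPM in bone marrow. Nkg7, another gene of that list, was at 72.8 to 132 CPM in blood and 77.2 to 108 CPM in bone marrow, which overlapped. The part of NK cells in the Il18r1 level was not tested.

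**Figure D4:**
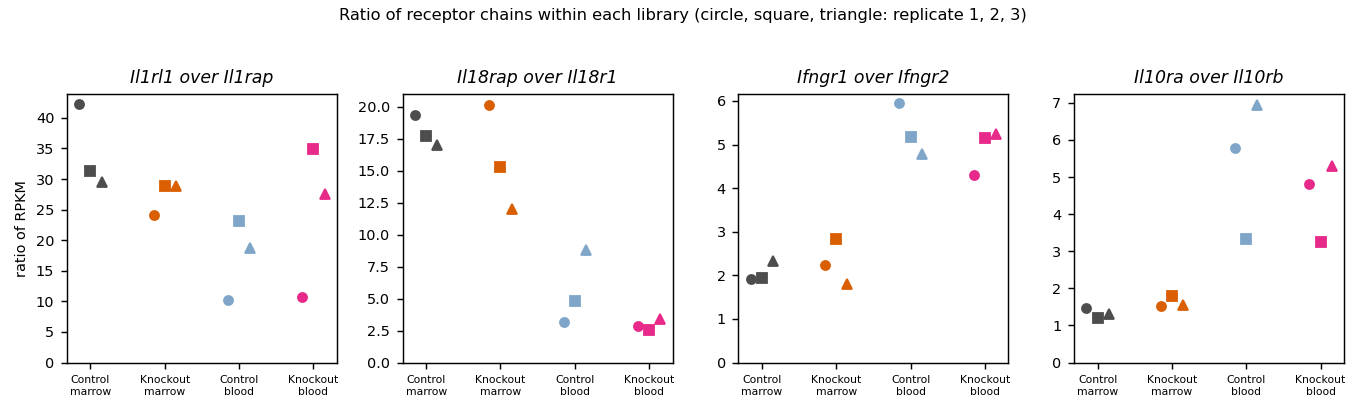
Ratio of 2 chains of a receptor per exon length (RPKM over RPKM, linear axis from 0) in each library, for the receptors of IL-33, IL-18, interferon-γ and IL-10. Blood and bone marrow libraries do not overlap for Il18rap over Il18r1, Ifngr1 over Ifngr2 and Il10ra over Il10rb, whereas they do for Il1rl1 over Il1rap in Atg5-knockout eosinophils (24.2 to 28.8 and 10.7 to 34.9) but not in control (29.5 to 42.3 and 10.2 to 23.2). Not drawn are Crlf2 over Il7r, which overlapped (56 to 108 in bone marrow and 19.3 to 762 in blood), and Il17ra over Il17rb, which did not (43.5 to 92.8 and 183 to 2566). How often ratios of other genes separate the tissues was not examined.

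Il17rb, the IL-25-binding chain, had the largest difference between the tissues on the log2 scale and the fewest counts. It had 46, 49 and 52 counts in control bone marrow and 11, 4 and 6 counts in control blood (4.48-fold lower, log2 fold change -2.16, SE 0.56, edgeR adjusted p = 0.0178). Its adjusted p lay between 0.0503 and 0.0754 without any 1 of the 3 bone marrow libraries, blood replicate 2 or blood replicate 3. In Atg5-knockout libraries it had 67, 55 and 36 counts in bone marrow and 7, 6 and 1 in blood (8.16-fold lower, log2 fold change -3.03, SE 0.59, edgeR adjusted p = 0.00291). No blood library reached a bone marrow library in either genotype. Of its exon bases 141 are shared with Actr8 on the other strand, and the counting used no option for strand, so that reads over these bases may be missing from the counts of either gene. Its partner chain Il17ra had 3330 to 9466 counts per library. In Atg5-knockout eosinophils Il17ra was called slightly higher in blood (log2 fold change 0.41, SE 0.14, edgeR adjusted p = 0.0331). In control eosinophils it was not called, and its libraries overlapped (log2 fold change 0.03, SE 0.26, edgeR adjusted p = 0.939).

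**Figure D5:**
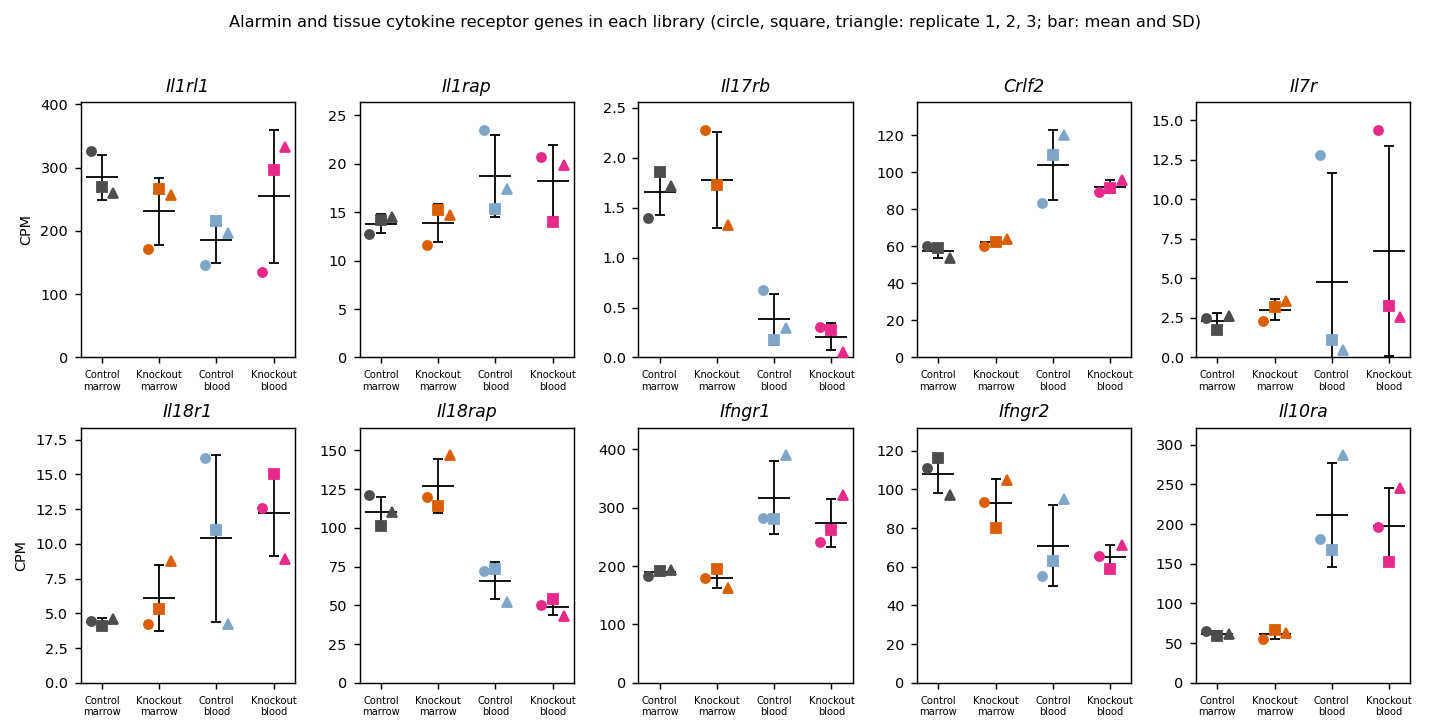
CPM of each of the 10 genes (linear axes from 0) in the 12 libraries, by tissue and genotype, with the mean and SD of each group as a bar. Il10ra, Crlf2 and Ifngr1 are higher in blood, Il17rb and Il18rap are lower, and Il7r is highest in replicate 1 of each blood group.

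Atg5-knockout was compared with control within each tissue to ask whether loss of Atg5 altered these receptors. In bone marrow none of the 10 genes was called in either direction by edgeR, beside 0.348% of the 13781 genes tested (48 genes), and none had an unadjusted p under 0.05. For none of the 10 did the 3 libraries of one genotype lie apart from those of the other, beside 14.4% of the genes tested. Of the 10, 5 were higher and 5 lower, with log2 fold changes from -0.33 to 0.45. DESeq2 called none of them either. The smallest unadjusted p belonged to Il1rl1 (log2 fold change -0.33, SE 0.16, 95% confidence interval -0.68 to 0.01, edgeR adjusted p = 0.53), in which knockout replicate 1 at 171 CPM stood below the other 5 libraries at 257 to 326 CPM. Ifngr2 followed (log2 fold change -0.25, SE 0.12, interval -0.52 to 0.02, edgeR adjusted p = 0.559). Intervals were narrowest for Crlf2 (-0.14 to 0.30), Ifngr1 (-0.34 to 0.11) and Il10ra (-0.26 to 0.20), and widest for Il17rb (-0.57 to 0.72).

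In blood 9 of the 10 genes passed the filter, all but Il17rb. None was called, beside 0.0371% of the 13460 genes tested (5 genes), none had an unadjusted p under 0.05, and none had libraries of the 2 genotypes lying apart, beside 7.58% of the genes tested. DESeq2 called none of them. Of the 9, 3 were higher and 6 lower, from -0.41 for Il18rap to 0.53 for Il7r. Il18rap had the smallest unadjusted p (log2 fold change -0.41, SE 0.20, interval -0.86 to 0.04, edgeR adjusted p = 1), with knockout libraries at 43.0 to 53.8 CPM and control libraries at 52.0 to 73.7 CPM. Il1rl1 was at a mean of 255 ± 105 CPM in knockout and 186 ± 36.0 CPM in control libraries (SD, n = 3; log2 fold change 0.47, SE 0.33, interval -0.27 to 1.21, edgeR adjusted p = 1). The interval of Il7r, -1.96 to 3.01, was too wide to bound a change. Between same-numbered blood libraries, which were taken as pairs although the labels do not name them so, Il7r was higher in the knockout library in 3 of 3 pairs. Il18rap and Ifngr1 were lower in 3 of 3. Every other gene of the 10 was higher in some pairs and lower in others. The share of all genes with 1 direction in 3 of 3 pairs was not computed, so that these counts are a description only. With the replicate number as a block none of the 9 was called, with log2 fold changes of 1.2 for Il7r (edgeR adjusted p = 0.577), -0.40 for Il18rap (0.621) and -0.18 for Ifngr1 (0.793). Without blood replicate 1 of each genotype none of the 9 was called either. Blood libraries were more variable than those of bone marrow, with a biological coefficient of variation of 0.365 against 0.146 in this comparison.

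Whether the effect of the knockout differed between the tissues was tested as an interaction over the 12 libraries. None of the 10 genes was called, beside 0% of the 14712 genes tested by edgeR. DESeq2 called 11 genes, none of them a receptor listed here. At an unadjusted p under 0.05 edgeR gave 740 genes, 1 of them among the 10. That gene was Il18rap (difference of log2 fold changes -0.63, SE 0.23, interval -1.13 to -0.13, edgeR adjusted p = 0.942), whose knockout libraries averaged higher in bone marrow (127 ± 17.6 against 110 ± 10.1 CPM) and lower in blood (49.0 ± 5.49 against 66.0 ± 12.2 CPM). For Il1rl1, called lower in blood in control eosinophils alone, the difference was 0.76 (SE 0.40, interval -0.11 to 1.62, edgeR adjusted p = 0.942), and it did not pass the test either.

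Other genes of the same pathways were examined by lists of ligands, partner chains, signalling proteins, feedback genes and further cytokine receptors. Of their 64 genes 59 were tested in each tissue, and edgeR called none between the genotypes, with 8 at an unadjusted p under 0.05 in bone marrow, beside 1333 of all 13781 genes tested, and 1 in blood, beside 347 of 13460. DESeq2 called none of them either. Of the ligands, Il25 had no count in any library and Il33 had 1 count in each of 2 libraries, while Tslp had 0 to 28 counts. Ifng had no count in the 6 bone marrow libraries, 44, 20 and 11 counts in control blood and 14, 13 and 6 in Atg5-knockout blood. It was at least 37.5-fold higher in control blood (edgeR adjusted p = 0.0044) and at least 14.9-fold higher in Atg5-knockout blood, where it did not pass the filter, with 3 counts over the bone marrow group taken as the limit. Il18 was higher in blood, with a log2 fold change of 1.49 (SE 0.50, edgeR adjusted p = 0.0471) in control and 2.35 (SE 0.47, edgeR adjusted p = 0.00347) in Atg5-knockout eosinophils. Ifng is a product of NK and T cells. Of the 10 T and NK cell genes, 6 were higher in each blood library than in any bone marrow library, and 4 overlapped (Trac, Cd4, Cd8a and Nkg7). The share over all genes was not computed for this count. The part of NK and T cells in the counts of Ifng was not tested.

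The counts of called genes in the following lists stand beside 16.2% higher and 18% lower of all genes tested in control eosinophils, and 23.5% higher and 24.1% lower in Atg5-knockout eosinophils. Among 5 partner chains and decoys, Il2rg, the common γ chain, was called higher in control blood (log2 fold change 1.35, SE 0.18, edgeR adjusted p = 0.000833). In Atg5-knockout eosinophils 3 were called higher, Il2rg (1.63, SE 0.17), the IL-18-binding decoy Il18bp (1.67, SE 0.27) and Il17ra, and none was called lower in either genotype. The median log2 fold change of the list was 0.03 in control and 0.41 in Atg5-knockout eosinophils. Of 12 adaptors and kinases of the IL-1 receptor family and IL-25, 3 were called higher in control blood. These were Traf6, a ubiquitin ligase (log2 fold change 1.30, SE 0.26), Myd88, the adaptor of ST2 and of the IL-18 receptor (0.76, SE 0.20), and Tab2 (0.51, SE 0.14). The same 3 were called in Atg5-knockout eosinophils, at 1.36 (SE 0.21), 0.93 (SE 0.15) and 0.72 (SE 0.12), where Irak3, a brake on this signalling, was called lower (-0.35, SE 0.13). The list had medians of 0.19 and 0.22, and its 3 of 12 genes called higher lay near the share over all genes in Atg5-knockout eosinophils. Of 8 JAK kinases and STAT factors, 2 were called higher and none lower in each genotype. Jak1, used by the receptors of interferon-γ and IL-10, had log2 fold changes of 1.18 (SE 0.18) in control and 1.14 (SE 0.11) in Atg5-knockout eosinophils, and Jak2, used by those of interferon-γ and TSLP, had 0.91 (SE 0.19) and 1.16 (SE 0.18). The medians of this list were 0.18 and 0.17, and its 2 of 8 genes were likewise near that share.

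Of 10 feedback and response genes, 5 were called higher in control blood, beside 16.2% of all genes, and 8 in Atg5-knockout blood, beside 23.5%, and none was called lower, with medians of 0.81 and 1.37. Tnfaip3, an inhibitor of NF-κB signalling, rose by 2.48 (SE 0.46) and 3.27 (SE 0.15) on the log2 scale in control and Atg5-knockout eosinophils. Nfkbia, which encodes IκBα, rose by 1.73 (SE 0.32) and 2.16 (SE 0.23), and Socs2, a suppressor of cytokine signalling, by 1.41 (SE 0.19) and 2.22 (SE 0.22). Of 22 further cytokine receptors, of which 21 were tested, 8 were called higher and 3 lower in control blood, beside 16.2% and 18% of all genes. In Atg5-knockout blood 9 were called higher and 3 lower, beside 23.5% and 24.1%, with medians of 0.36 and 0.41. Il4ra, the IL-4 receptor alpha chain, rose by 1.92 (SE 0.23) and 2.42 (SE 0.20), and Csf1r, the receptor of CSF-1, by 1.66 (SE 0.15) and 1.66 (SE 0.13). Il2rb, a chain of the IL-2 and IL-15 receptors that NK cells carry, went from 0.835 to 2.28 CPM in bone marrow to 61.7 to 184 CPM in blood (log2 fold changes 6.49, SE 0.50, and 5.64, SE 0.27). Of the NK cell genes given above, Gzma was higher in blood and Nkg7 overlapped between the tissues. The part of NK cells in the Il2rb level was not tested.

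For each receptor gene with a mean of at least 5 CPM, the gene with the most similar pattern was sought among 9457 genes, by Pearson correlation of log2 CPM over the 12 libraries. The libraries fall into 2 tissues and share depth and scaling, so that these values are a description only. Il10ra was closest to Nfkbib (r = 0.992), Crlf2 to Spi1 (0.981), Il18rap to Gys1 (0.98) and Ifngr1 to Eid2b (0.978). Il1rap was closest to Med13 (0.95), Il1rl1 to Tmem33 (0.944) and Il18r1 to Slamf7 (0.935).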

How the data were processed

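RNA-seq libraries of eosinophils from bone marrow and blood were analysed, 3 for each of 4 groups of genotype and tissue. According to the methods of the study, the mRNA libraries kept strand information and were read from one end, then aligned with HISAT2 2.2.1 and counted per gene. The authors deposited raw counts from featureCounts 2.0.1, and the header of the table names Ensembl release 92 on GRCm38, no option for strand and the option for paired reads, although the methods name a GRCm39 annotation and reads from one end. The column names were matched to the sample titles, and symbols came from GENCODE M39. Counts were tested with edgeR 4.0.16 (R 4.3.3) by filterByExpr (minimum count 10, minimum total 15), TMM and the quasi-likelihood test, with Benjamini-Hochberg adjustment over all genes tested and the 6 libraries of a comparison in the fit. The interaction used all 12. CPM used TMM factors over the 12 libraries, and RPKM divided it by exon length. DESeq2 1.42.0, other scalings, no filter, a replicate block and leaving out libraries were the alternatives. Same-numbered blood libraries of the 2 genotypes deviated together (correlations 0.595, 0.339 and 0.368), so that the numbers were taken to pair them. Same-numbered bone marrow libraries did not (-0.196, -0.15 and -0.00356). Of the differently numbered blood libraries, replicates 2 and 3 also correlated (0.203 and 0.16), whereas those with a replicate 1 ran from -0.467 to -0.372. Deviations within a group sum to 0, so that these correlations are not independent and cannot settle the pairing. Replicates differed by more than sampling noise. The scripts were tested on simulated data. The receptor genes and the lists were chosen with earlier results of these data known. Named were all 10 receptor genes, each list gene called between genotypes, the 3 called genes of lowest p of each list between tissues, the most correlated gene of each receptor gene with a mean of at least 5 CPM (that of Ifngr2 is not reported here), and Atg5. Irak3, Il10rb, Il25, Il33, Tslp, Tpsb2, Cpa3, Mcpt8, Gata2, Fcer1a, Elane, Siglecf, Gzma, Nkg7, Ncr1, Klrb1c, Trac, Cd4, Cd8a and Cd3e were named after their values were seen.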

Additional observations from a re-analysis of the deposited data

How the results depend on the processing

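No receptor gene was called between the genotypes, or in the interaction, under any alternative run, which were DESeq2, all 12 libraries in 1 fit, other scalings, no filter, a replicate block and leaving out libraries. Between the tissues, a fold threshold added to the adjusted p (log2 fold change beyond 2) left 0 genes higher and 1 lower in both genotypes, the lower one being Il17rb. Leaving out 1 library gave 1 to 4 higher and 0 to 4 lower genes in control eosinophils. With the replicate block, Il7r in control eosinophils went to -0.15, Ifngr2 was called (log2 fold change -0.66, edgeR adjusted p = 0.0403) and no other call of a receptor gene changed. In every comparison the labels give the samples only a shared number, and the pairing of blood libraries was inferred from the counts. The cause of these changes was not tested. Changes of sign were seen in log2 fold changes that had not been called. In the bone marrow comparison of genotypes, Il1rap and Il10ra went to 0 with all 12 libraries and to 0.01 and 0 with library size alone. In blood, library size alone gave Il1rap 0.08 and Il10ra 0.02, and omitting replicate 1 of both blood groups gave Il1rap 0.07. Between tissues, library size alone moved Il1rl1 to -0.11 in Atg5-knockout eosinophils, and omitting blood replicate 1 moved Il7r to -1.51 in control and -0.04 in Atg5-knockout eosinophils. In the interaction, library size alone gave Il1rap 0.07 and Il10ra 0.01, and omitting blood replicate 1 gave Il1rap 0.08, Il18r1 0.2 and Ifngr2 -0.03.

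Leaving out 1 library at a time gave these ranges for values that changed sign. Between genotypes in bone marrow, Il1rap ranged from -0.09 to 0.09, Il17rb from -0.14 to 0.24 and Il10ra from -0.09 to 0.05. In blood, Il1rap ranged from -0.14 to 0.18, Il7r from -0.7 to 3.08, Il18r1 from -0.13 to 0.7, Ifngr2 from -0.26 to 0.16 and Il10ra from -0.27 to 0.21. Between tissues, Il7r ranged from -1.51 to 1.58 in control and from -0.04 to 1.56 in Atg5-knockout eosinophils, where Il1rl1 ranged from -0.09 to 0.46. In the interaction, Il1rap ranged from -0.17 to 0.15, Il7r from -1.07 to 2.66, Il18r1 from -0.63 to 0.2, Ifngr1 from -0.26 to 0.05, Ifngr2 from -0.06 to 0.36 and Il10ra from -0.29 to 0.18.

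Over all genes, bone marrow calls between genotypes (20 higher, 28 lower) became 59 and 133 with DESeq2, 7 and 5 with all 12 libraries, 161 and 259 without the filter and 11 and 12 with the replicate block. Blood calls (5 and 0) became 15 and 8, 12 and 4, 18 and 59, and 7 and 3. Between tissues in control eosinophils, library size alone gave 1308 higher and 3906 lower genes. The interaction gave 11 genes with DESeq2 and 119 without the filter, against 0. Without 1 library, the calls ranged from 9 to 79 higher and 9 to 140 lower between genotypes in bone marrow, 2 to 5 and 0 to 1 in blood, 1163 to 2808 and 1464 to 3118 between tissues in control, and 2228 to 3684 and 2356 to 4072 in Atg5-knockout eosinophils. Depth limits Il17rb, with 1 to 11 counts in blood.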
